A study of Mus musculus with 8 samples.

Results

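Oxidative phosphorylation genes encode the subunits of the mitochondrial respiratory chain and of the ATP synthase. They were chosen by symbol: genes whose names begin with Nduf, Uqcr, Atp5, mt-Nd, mt-Co, mt-Cyt or mt-Atp, or with Cox followed by a digit from 4 to 8. This gave 101 of the 27998 genes in the count tables, 88 encoded in the nucleus and 13 in the mitochondrial genome. The nuclear genes comprise 36 of complex I, 7 named for the assembly of complex I, 8 of complex III, 20 of complex IV, 15 of the ATP synthase (complex V) and 2 named after it. The symbol was the only criterion.

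Single mammary epithelial cells of C57BL/6N mice were sequenced from 8 libraries, each made from 1 mouse, with 2 mice at each of 4 stages. The NP mice were nulliparous and aged 8 weeks. The G mice were at gestation day 14.5, the L mice at lactation day 6, and the PI (post-involution) mice 11 days past weaning, which took place naturally. By vaginal smears in the study, both NP mice and the second PI mouse were in oestrus and the first PI mouse in dioestrus. The part of the cycle in the comparisons of PI with NP mice was not tested. No transgene, knockout or drug was used. All cells had been sorted as EpCAM-positive and as negative for CD31, CD45 and Ter119, and the 3′ ends of their transcripts were counted by unique molecular identifiers (UMIs), each of which stands for 1 captured molecule. The question behind the comparisons is how each epithelial cell type differs between stages, and how the cell types of one gland differ from each other, in these genes.

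In the respiratory chain, complex I takes electrons from NADH, complex II from succinate, and both pass them through ubiquinone to complex III, cytochrome c and complex IV, where oxygen is reduced. Complexes I, III and IV move protons across the inner mitochondrial membrane, and the ATP synthase uses the return flow to make ATP. Complexes I, III, IV and V are each built from nuclear and mitochondrially encoded subunits, so that the chain needs transcripts of both genomes. Milk-making cells of the mammary gland are known for an enlargement of the mitochondrial compartment between pregnancy and lactation.

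UMIs were summed per library and cluster, using the authors' clusters C1 to C19 and sums of at least 20 cells, which gave 51 sums from 24516 of the 25009 cells that passed the authors' flags. Levels are CPM, UMIs of a gene scaled to the same total in every sum, and are therefore shares of the RNA of those cells: fewer transcripts of a gene and more of all other transcripts cannot be told apart. Depth per library ran from 13306760 to 34552742 UMIs in cells that passed. The 22 sums that entered a comparison held 42 to 4637 cells and 572463 to 26454518 UMIs. The median cell of the L libraries held 3770 and 4258 UMIs, against 5826 to 9624 in the other libraries. Of the barcode sequences, 392 occurred in more than 1 library, and all cells that carried them had been removed by the authors' flags.

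Groups were compared with the quasi-likelihood test of edgeR after TMM scaling, which centres the bulk of genes at no change, with Benjamini-Hochberg adjusted p-values over the whole table and a threshold of 0.05. "Higher" and "lower" below mean past this threshold. The values of both mice are given in the order first mouse, second mouse. With 2 mice against 2, an exact permutation test of a single value cannot go below p = 0.33, so every adjusted p depends on the spread that edgeR estimates jointly for all genes. The clusters were formed by the authors from the transcripts of the same cells, and most came almost wholly from 1 stage, so the tests measure differences between groups that were separated on expression and do not account for that step. The largest rises and falls are named among genes past the test whose mean was 20 CPM or more on either side. Between stages the mice of the groups also did not overlap, and within mice both mice moved in the same direction. Summed markers of other cell types, dissociation-stress genes and nuclear RNA (*Malat1* and Neat1) were compared too, and some of their shifts are given with the comparisons.

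Promoter sequences are shown for the 3 genes of the c subunit of the ATP synthase, because these genes encode the same mature protein from different promoters and did not move together, and for *Ndufaf4*, because it was the gene called lower in the most comparisons. Each is the RefSeq sequence of the 250 bases before the annotated start on GRCm38.p6, read on the strand of the gene, with the NRF1-type motif (GCGCA and GCGC with any base between them, the form of site bound by NRF1) in capitals. *Atp5g1* lies at chr11:96075632-96075881 (minus strand), *Atp5g2* at chr15:102671048-102671297 (minus strand), *Atp5g3* at chr2:73911327-73911576 (minus strand) and *Ndufaf4* at chr4:24897833-24898082 (plus strand).
Atp5g1: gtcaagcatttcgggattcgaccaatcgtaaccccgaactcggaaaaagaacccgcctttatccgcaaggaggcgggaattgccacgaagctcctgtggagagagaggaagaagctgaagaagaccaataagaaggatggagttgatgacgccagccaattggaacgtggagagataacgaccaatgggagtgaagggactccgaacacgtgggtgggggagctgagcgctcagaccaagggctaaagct
Atp5g2: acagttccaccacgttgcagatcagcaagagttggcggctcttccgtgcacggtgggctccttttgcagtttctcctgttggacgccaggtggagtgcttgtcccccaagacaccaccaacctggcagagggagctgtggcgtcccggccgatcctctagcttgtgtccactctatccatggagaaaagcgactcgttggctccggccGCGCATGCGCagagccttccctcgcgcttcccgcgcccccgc
Atp5g3: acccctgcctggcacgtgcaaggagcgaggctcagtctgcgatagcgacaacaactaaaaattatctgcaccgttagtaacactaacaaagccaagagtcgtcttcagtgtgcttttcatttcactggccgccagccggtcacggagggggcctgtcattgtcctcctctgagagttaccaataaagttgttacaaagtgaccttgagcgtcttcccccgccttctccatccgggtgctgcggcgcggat
Ndufaf4: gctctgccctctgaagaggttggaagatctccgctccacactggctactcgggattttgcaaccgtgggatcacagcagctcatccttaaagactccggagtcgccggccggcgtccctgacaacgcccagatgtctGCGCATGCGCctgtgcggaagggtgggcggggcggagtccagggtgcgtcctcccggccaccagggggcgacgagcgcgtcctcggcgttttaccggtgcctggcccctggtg

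The motif began 42 bases before the start of *Atp5g2* and 113 bases before that of *Ndufaf4*, and none lay in the 250 bases of *Atp5g1* or *Atp5g3*. In *Atp5g3* a match lay in the 50 bases after the start. Over 300 bases (250 before and 50 after the start, both strands), the NRF1-type motif was found in 17 of the 70 nuclear genes with a promoter entry (24.3%) and in 5.19% of 27025 genes. CCGGAAG, an ETS-type motif bound by GABP, was found in 15 (21.4%) against 9.93%. AAGATGG, a YY1-type motif, was found in 10 (14.3%) against 7.28%, and AAGGTCA, a motif of the oestrogen-related receptors, in 7 (10%) against 5.38%. CCGGAAG can overlap AAGATGG or AAGGTCA by its last letters, AAG, so those matches are not independent. No entry was matched for 18 genes, among them *Cox4i1*, *Cox4i2*, *Ndufa4l2*, *Atp5a1* and *Uqcrb*. A match of letters describes the sequence and is no evidence of binding.

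The summed level of the nuclear genes differed between cell types of the same gland. Among epithelial clusters with a sum from both mice of a stage, the lowest were those of basal cells of PI mice (C12), at 14027 and 16575 CPM, and of luminal progenitors of NP mice (C6), at 16005 and 16994 CPM. Differentiated hormone-sensing cells stood well above these, at 29373 and 26746 CPM in NP (C4) and 32241 and 30962 CPM in PI (C3). The hormone-sensing cells of gestation (C5) had the highest sums, 45764 and 41332 CPM, from 20 and 41 cells.

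Differentiated alveolar cells, which make milk, reached 32547 and 29864 CPM in gestation (C8), and alveolar progenitors of the same mice (C10) 22886 and 21513 CPM. In lactation the differentiated alveolar cells (C9) stood at 20651 and 20382 CPM, but milk protein genes took 447540 and 417200 CPM of those sums. With the milk protein genes left out of the total, the same sums came to 37380 and 34973 CPM, which overlaps the 36029 and 31683 CPM of C8 scaled in the same way. Basal cells of NP (C12) and G mice (C13) and myoepithelial cells of L mice (C14), which contract to eject milk, lay close together, at 19213 and 19079, 18544 and 17499 and 18946 and 18501 CPM.

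In order of mean level over 2 mice, C5 (43548 ± 3134 CPM, SD, n = 2) stood first and was followed by C3, C8, C15, C4 and C1. From C3 to C15 neighbours in this order overlapped between mice: C3 at 31602 ± 904, C8 at 31206 ± 1897 and C15 at 30607 ± 1174 CPM. The sums of C10 and C11 also overlapped, as did those of C13 and C14.

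**Figure D1:**
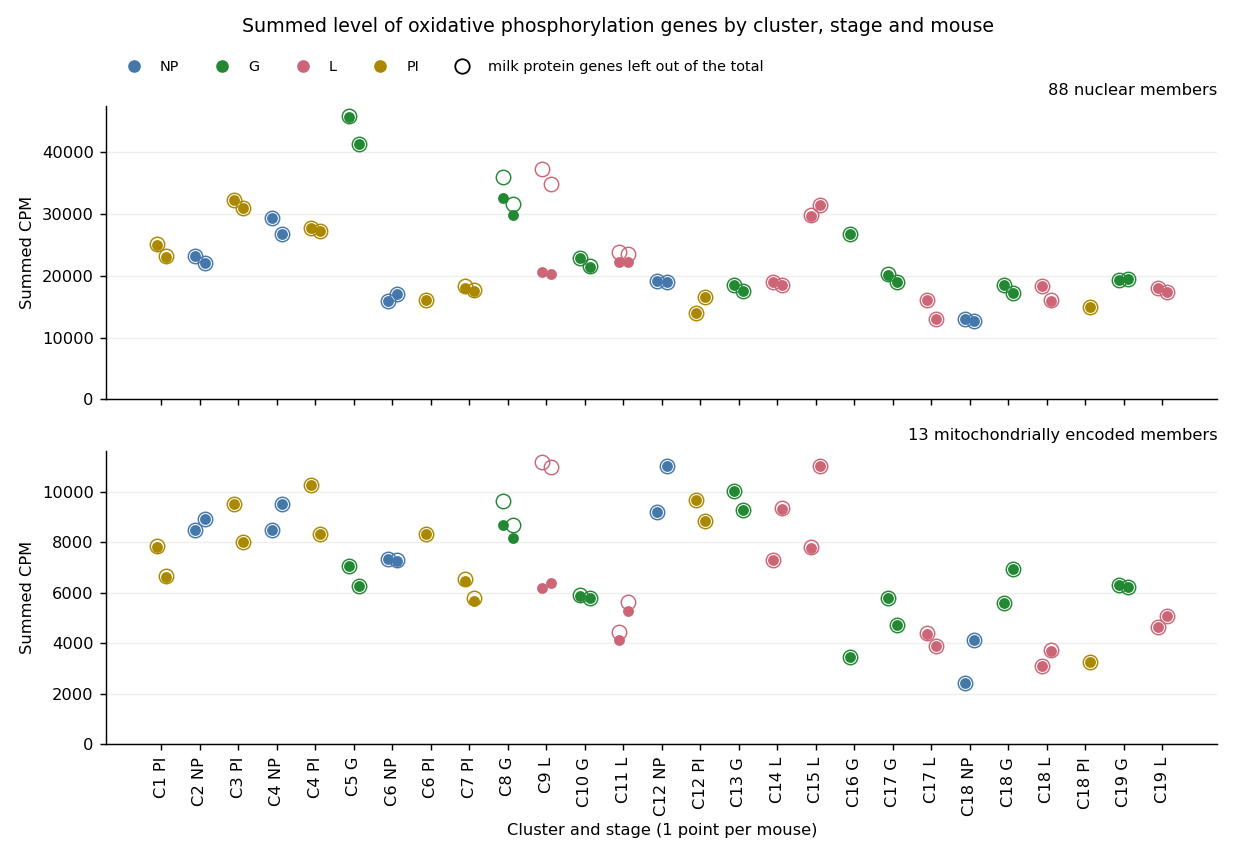
Summed CPM of the nuclear genes (upper panel) and of the mitochondrially encoded genes (lower panel), by cluster and stage, with 1 filled point per mouse and an open circle for the level with milk protein genes left out of the total. The nuclear sums of C5, 45764 and 41332 CPM, are the highest, while the mitochondrially encoded sums of C5 do not stand above those of C4 or C12.

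The transcripts of the mitochondrial genome did not follow the nuclear order. They summed to 9183 and 11017 CPM in C12 of NP mice and 10029 and 9282 CPM in C13, above the 7051 and 6255 CPM of C5 and the 4119 and 5285 CPM of the alveolar progenitors of lactation (C11). The ratio of nuclear to mitochondrially encoded UMIs was therefore 6.55 ± 0.0835 in C5 and 1.91 ± 0.255 in C12 of NP mice. Only 7 mitochondrially encoded genes reached 20 CPM in any sum. The summed level and this ratio rest on those genes and are no measure of all 13. Across the 51 sums the correlation of the nuclear with the mitochondrially encoded summed level was 0.407 on the log2 scale, as a description, since sums of 1 library share its preparation.

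The genes differed widely in level. UMIs of the 3′ ends count each captured transcript once whatever its length, and on this scale the 6 nuclear genes with the highest mean over the compared sums were *Cox4i1* and *Cox8a* (complex IV), *Uqcrh* (the hinge protein of complex III), *Atp5b* (the catalytic beta subunit of the ATP synthase), *Ndufa4* (now counted to complex IV) and *Cox6c*. *Cox4i1* ranged from 763 to 3083 CPM over the 51 sums, and *Cox8a* from 614 to 2864 CPM. Both were highest in the first mouse of C5. At the other end, no UMI of *Cox7b2* or *mt-Nd4l* was counted in any sum, where a count of 0 allows up to 3 UMIs, *Cox8c* had 2 UMIs, *Cox6a2* had 8 and *Cox8b* had 14. In all, 81 nuclear and 7 mitochondrially encoded genes reached 20 CPM in at least 1 sum.

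Of the mitochondrially encoded genes, *mt-Cytb* (complex III) and *mt-Nd1* (complex I) were the most abundant, at 765 to 3944 CPM and 917 to 3926 CPM. By contrast *mt-Co2*, *mt-Co3* and *mt-Atp6* did not exceed 3.18, 8.09 and 8.90 CPM. Of the 50-base stretches in the last 500 bases of these 3 transcripts, 100%, 99.8% and 99.3% also occur in other annotated genes, which are copies of mitochondrial DNA in the nucleus, and 95.3% of those of *mt-Co1* do. The levels of these genes are therefore uncertain. Among the nuclear genes, 61 shared no such stretch and 4 shared 50% or more (*Atp5l* 75.2%, *Atp5h* 60.3%, *Atp5o* 57.4% and *Ndufs3* 53.9%). The closest entry to *Atp5o* was a second annotated entry of the same symbol, so its share need not come from a copy elsewhere.

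Differentiated hormone-sensing cells (C4) and luminal progenitors (C6) of the same NP mice differed in nearly the whole chain. The summed nuclear level was 1.70 times as high in C4. Of 82 nuclear genes tested, 68 were higher in C4 and 2 were lower, where 31.5% of all 11597 genes tested were higher and 29.7% were lower. The median log2 fold change was 0.70 for the nuclear genes and 0.04 for all genes. Among genes whose longest protein-coding transcript was under 1000 bases, the median was 0.77 for the nuclear genes and 0.40 for all genes. Among longer ones it was 0.52 and 0.01. The part of transcript length in this and the other comparisons was not tested. Complex I had 33 of 36 genes higher, complex III 7 of 8, complex IV 12 of 14 and complex V 12 of 15.

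Among genes of at least 20 CPM the largest rise was that of *Ndufa7*, an accessory subunit of complex I, with 273 and 308 CPM in C6 and 954 and 874 CPM in C4 (log2 fold change 1.71, SE 0.12, adjusted p = 3.55e-43). *Ndufv3*, which belongs to the NADH-binding module of complex I, stood at 54.6 and 79.2 CPM in C6 and 180.1 and 179 CPM in C4 (1.50, SE 0.12). Both genes had no overlap between the clusters. *Cox8a* was at 681 and 792 CPM in C6 and 1602 and 1584 CPM in C4 (1.17) and *Cox4i1* at 941 and 907 CPM in C6 and 1871 and 1848 CPM in C4 (1.06). The catalytic subunit gene *Atp5b* differed less, at 0.67, and *Ndufa4* did not pass the test (0.25, adjusted p = 0.0571). Neither *Atp5g1* nor *Atp5g3* passed it.

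The complex I assembly factor *Ndufaf4* went the other way: it stood at 81.5 and 92.5 CPM in C6 and 29.7 and 30.3 CPM in C4 (log2 fold change -1.48, SE 0.12, adjusted p = 5.62e-31), without overlap. The other gene lower in C4, *Cox7a1*, was at 7.54 and 14.5 CPM in C6 and 5.05 and 6.96 CPM in C4, a difference of few UMIs that was not called in a fit without the pairing by mouse. Milk protein genes were at 770.1 and 1445 CPM in C6 and 14.6 and 11.9 CPM in C4. Of 10 mitochondrially encoded genes, 6 were higher and none was lower. *mt-Cytb* was at 2039.8 and 1948 CPM in C6 and 2883 and 3244 CPM in C4 (0.67), while *mt-Nd1* did not pass the test (0.08).

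In gestation, differentiated alveolar cells (C8) were above alveolar progenitors (C10) of the same mice in 70 of 82 nuclear genes and below them in 1, where 14.4% of all genes tested were higher and 13.8% lower. The median log2 fold change was 0.68 (all genes, -0.01). For transcripts under 1000 bases it was 0.71 (all genes, 0.17) and for longer ones 0.64 (all genes, -0.01). Complex III had all of its 8 genes higher, complex I 34 of 36, complex V 14 of 15 and complex IV 12 of 14. Of the 7 assembly genes of complex I only 2 were higher. Beside this, the cytosolic ribosomal protein genes went the other way, with 2 of 82 higher and 57 lower.

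*Atp5o*, a stalk subunit of the ATP synthase, had the largest rise of a nuclear gene of at least 20 CPM, with 318 and 285 CPM in C10 and 617 and 538 CPM in C8 (log2 fold change 1.05, SE 0.08, adjusted p = 6.17e-41). *Uqcr11*, a small subunit of complex III, followed at 259 and 226 CPM in C10 and 511 and 404 CPM in C8 (1.03, SE 0.08). *Atp5b* stood at 778 and 682 CPM in C10 and 1141 and 1107 CPM in C8 (0.74). In each of the 3 genes both mice of C8 lay above both of C10. *Uqcrh*, although abundant, differed by only 0.16 (adjusted p = 0.0391).

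*Cox7a2l*, which takes part in joining complexes III and IV into supercomplexes, was the 1 gene lower in C8, with 379 and 422 CPM in C10 and 253 and 319 CPM in C8 (-0.37, SE 0.08). All 7 abundant mitochondrially encoded genes were higher in C8, by 0.20 (*mt-Co1*) to 1.08 (*mt-Nd6*) on the log2 scale. The calls of *Cox7a2l*, *Uqcrh* and *mt-Co1* were lost in a fit without the pairing by mouse. Milk protein genes took 4077 and 2032 CPM in C10 and 96653 and 57393 CPM in C8. *mt-Cytb* stood at 2213 and 2086 CPM in C10 and 3525 and 3123 CPM in C8.

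Against the basal cells of the same G mice (C13), the nuclear genes of differentiated alveolar cells were higher in 78 of 84 cases and lower in 4 (37.4% and 35.2% of all genes tested). The median was 0.96 (all genes, 0.05). For transcripts under 1000 bases it was 0.96 (all genes, 0.62) and for longer ones 0.97 (all genes, 0.02). All 36 tested complex I genes and all 15 complex V genes were higher, and of complex IV 12 of 16. Unlike in C4 against C6, 6 of the 7 assembly genes of complex I were higher as well. The abundant *Uqcrh*, at 895 and 868 CPM in C13 and 864 and 852 CPM in C8, did not pass the test (0.06).

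*Ndufc2*, an accessory subunit of complex I, had the largest rise among genes of at least 20 CPM, with 154 and 135 CPM in C13 and 567 and 535 CPM in C8 (log2 fold change 2.03, SE 0.10, adjusted p = 3.17e-95). *Atp5g1* was at 268 and 270.2 CPM in C13 and 833 and 696 CPM in C8 (1.60, SE 0.09), and the other genes of the same subunit differed by less, *Atp5g2* by 1.31 and *Atp5g3* by 0.98. The 4 genes lower in alveolar cells were *Ndufaf4*, *Cox6b2*, *Cox4i2* and *Ndufa4l2*. *Cox6b2*, an isoform of a complex IV subunit best known from testis, was at 30.3 and 25.8 CPM in C13 and 6.50 and 7.20 CPM in C8 (-1.94, SE 0.18). *Cox4i2* and *Ndufa4l2* were low in both cell types, at most 6.07 and 2.78 CPM.

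The mitochondrially encoded genes did not share this difference: none of 10 was higher, and *mt-Nd1* (-0.22) and *mt-Nd6* (-1.18) were lower, the former not without the pairing by mouse. *mt-Cytb* stood at 3707 and 3376 CPM in C13 and 3525 and 3123 CPM in C8, with overlapping ranges (0.01, adjusted p = 0.94). At an unadjusted p under 0.05 no other mitochondrially encoded gene passed either. Fibroblast markers were at 866 and 669 CPM in C13 and 44.8 and 18.2 CPM in C8, and milk protein genes at 1779 and 942 and 96653 and 57393 CPM. With the milk protein genes left out of the fit, 78 nuclear genes were again higher and 4 lower. Apart from this refit, the part of these shifts in the result was not tested.

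In lactation, differentiated alveolar cells (C9) were above progenitors (C11) of the same mice in 33 of 75 nuclear genes and below them in none (7.42% and 6.77% of all genes), with a median of 0.65 (all genes, -0.02). This comparison depends on the scaling, since milk protein genes take a large part of C9. With library totals in place of TMM the median of all genes shifted to -0.91, 1 nuclear gene was higher and 9 were lower. DESeq2 called 6 higher, and without a filter on low counts 16 were higher. After TMM scaling the nuclear median was 0.74 for transcripts under 1000 bases (all genes, 0.25) and 0.49 for longer ones (all genes, -0.05). *Ndufa1*, a small subunit needed for complex I assembly, had the largest rise among genes of at least 20 CPM, at 167 and 161 CPM in C11 and 264 and 275 CPM in C9 (log2 fold change 1.59, SE 0.25, adjusted p = 5.59e-07). Of the mitochondrially encoded genes 6 of 7 were higher, and *mt-Cytb* was at 1275 and 1696 CPM in C11 and 2243 and 2497 CPM in C9 (1.56, SE 0.31). Both L sums of C9 also held transcripts of *Cidea*, a gene of brown fat and lipid droplets that lactating mammary cells also use, at 1114 and 712 CPM, and basal markers at 2012 and 879 CPM, against 4647 and 3323 CPM in C11. Dissociation-stress genes were at 20464 and 14557 CPM in C11 and 7752 and 8031 CPM in C9, and luminal markers at 6304 and 10300 and 1904 and 3140.3 CPM. Their part in the result was not tested.

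**Figure D2:**
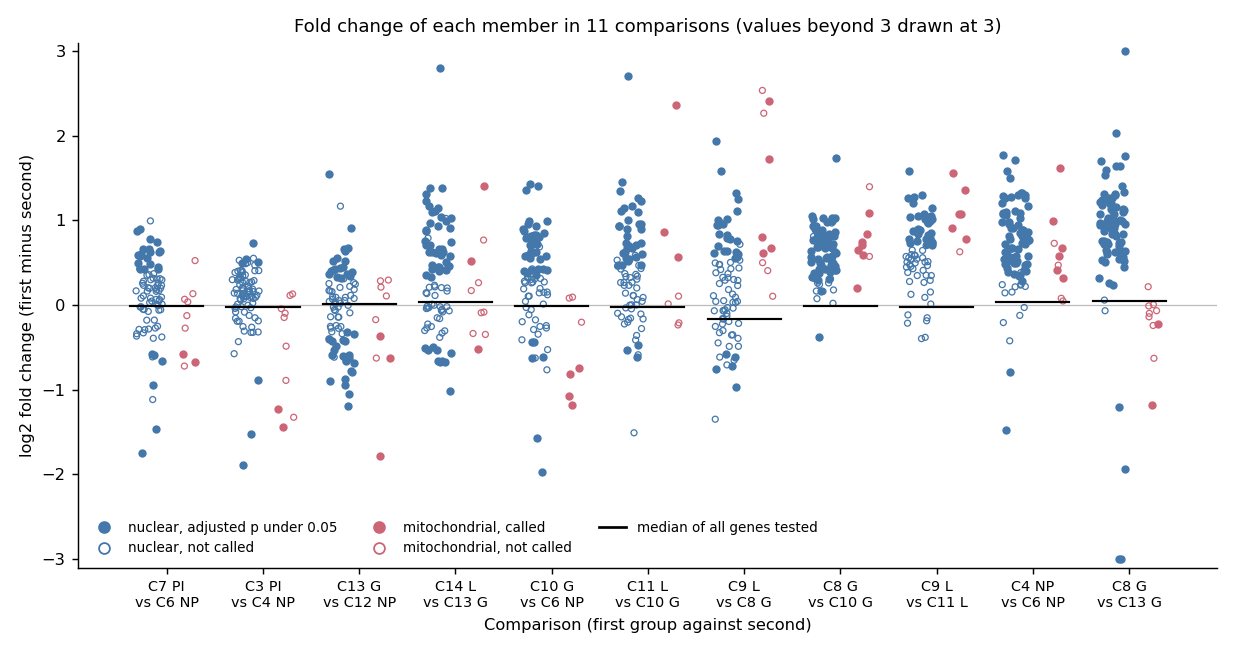
Log2 fold change of each gene in the 11 comparisons after TMM scaling, with 1 point per gene, nuclear genes in blue and mitochondrially encoded genes in red, filled where the adjusted p was under 0.05, and a black line at the median of all genes tested. Values beyond 3 are drawn at 3. The nuclear medians of 0.68, 0.70 and 0.96 in C8 against C10, C4 against C6 and C8 against C13 stand above those of the comparisons between stages.

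Between stages, luminal progenitors of PI mice (C7) were compared with those of NP mice (C6). The summed nuclear level rose from 16005 and 16994 to 18039 and 17522 CPM, a ratio of 1.08 without overlap, while the mitochondrially encoded genes went from 7342 and 7274 to 6465 and 5693 CPM. Of 83 nuclear genes 19 were higher and 6 lower, where 14.2% of all genes were higher and 13.3% lower (median 0.17, all genes -0.01). Of the higher genes, 11 were of complex I and 5 of complex V.

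*Ndufb10*, a subunit of the membrane arm of complex I, had the largest rise among genes of at least 20 CPM, from 99.9 and 111 CPM in C6 to 177 and 193 CPM in C7 (log2 fold change 0.90, SE 0.13, adjusted p = 0.000418). *Ndufc2* was at 109.5 and 111 CPM in C6 and 195 and 186 CPM in C7 (0.88, SE 0.12). *Ndufa9*, at the junction of the arms of complex I, was at 36.8 and 38.6 CPM in C6 and 66.7 and 55.1 CPM in C7 (0.78, SE 0.16). None of these 3 overlapped between stages. *Cox4i1* rose less, by 0.49.

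Of the falls, those of *Atp5g2* and *Atp5l* exceeded every rise named above. *Atp5g2* went from 58.5 and 49.8 CPM in C6 to 15.1 and 15.2 CPM in C7 (log2 fold change -1.75, SE 0.16, adjusted p = 1.67e-05). *Atp5l*, the g subunit of the ATP synthase, was at 165 and 162 CPM in C6 and 61.5 and 49.8 CPM in C7 (log2 fold change -1.47, SE 0.14, adjusted p = 2.05e-05). The other 4 lower nuclear genes were *Cox7a2l* (-0.59), *Ndufa12* (-0.58), *Ndufs5* (-0.66) and the weakly counted *Ndufb4* (-0.94). *mt-Nd2* (-0.67) and *mt-Co1* (-0.58) fell too. Without the first NP mouse the median log2 fold change of the nuclear genes was 0.11, and the counts of higher and lower genes drew closer. Without the second NP mouse that median was 0.19. Milk protein genes were at 770.1 and 1445 CPM in C6 and 13656 and 14679 CPM in C7. With these genes left out of the fit, 19 nuclear genes were again higher and 6 lower, with a median of 0.17. Apart from this refit, the part of the milk shift in the result was not tested.

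In differentiated hormone-sensing cells the step from NP (C4) to PI (C3) changed fewer of these genes: 4 of 82 nuclear genes were higher and 3 lower (8.54% and 7.54% of all genes). Without the second NP mouse none was higher, and without the first PI mouse 12 were higher and 5 lower. Without a filter on low counts 8 were higher, and at equal depth 2. The 4 that rose were *Ndufs8*, an iron-sulphur subunit of complex I, at 149.8 and 113 CPM in C4 and 244 and 211 CPM in C3 (log2 fold change 0.73, SE 0.16, adjusted p = 0.0096), *Uqcrb* (0.54), *Ndufb10* (0.50) and *Ndufv1* (0.50), of which the last is named after its value was seen. With the replicate number as a block the calls of *Ndufb10* and *Ndufv1* were lost (adjusted p = 0.0581 and 0.0527). The nuclear genes that fell were *Atp5g2*, *Atp5l* and *Cox7a2l*. Basal markers were at 119 and 49.1 CPM in C4 and 7.80 and 16.9 CPM in C3, and their part in the result was not tested.

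*Atp5g2* stood at 100.5 and 85.5 CPM in C4 and 27.3 and 25.0 CPM in C3 (log2 fold change -1.89, SE 0.16, adjusted p = 8.3e-06) and *Atp5l* at 247 and 226 CPM in C4 and 99.6 and 74.9 CPM in C3 (log2 fold change -1.52, SE 0.16, adjusted p = 7.14e-05). Neither overlapped between stages. Of the mitochondrially encoded genes, *mt-Co1* fell from 1065 and 1132 CPM in C4 to 526 and 463 CPM in C3 (log2 fold change -1.22, SE 0.18, adjusted p = 0.000837), and the barely counted *mt-Co3* was lower as well (-1.44). The other c subunit genes did not follow *Atp5g2*: *Atp5g1* was at 396 and 317 CPM in C4 and 381 and 403 CPM in C3 (0.08), with overlap, and *Atp5g3* did not pass the test either (0.27, adjusted p = 0.291).

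The low level of *Atp5l* in PI mice was seen in every cluster with enough cells. It ranged from 35.9 to 104 CPM in the 12 PI sums and from 151 to 247 CPM in the 10 NP sums, so that the stages did not overlap in any cell type. Among the 82 oxidative phosphorylation genes with a mean of at least 20 CPM it was the 1 gene with this pattern, which 16 of 5954 genes at that level showed (0.269%). In G mice *Atp5l* lay between 53.2 and 186 CPM, and in L mice between 76.6 and 178 CPM. *Atp5g2* reached at most 27.3 CPM in PI sums and 14.4 to 100 CPM in NP sums. The PI sums of *mt-Co1* lay between 232 and 681 CPM, and its NP sums between 282 and 1161 CPM, where the lowest NP sums came from cluster C18, which holds fibroblast-like cells.

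The genes that fell were set beside their sequence copies, as counts with no test. Every other annotated entry counted, also one of the same symbol, as for *Atp5o* among the genes tested. In C7 against C6, 5 of the 8 lower genes shared 10% or more of their 3′ stretches with another annotated gene, against 22 of 92 tested and 4 of 19 higher genes. In C3 against C4 it was 4 of 5 lower genes, against 23 of 92 tested and 1 of 4 higher genes. The closest relatives were *Gm10221* for *Atp5l*, *Gm10175* for *Atp5g2*, of which 23.1% was shared, and *Gm29216* for *mt-Co1*. Reads from such stretches cannot be assigned by sequence alone, and how far this entered the PI levels was not tested. All libraries were collected and processed together according to the study's methods.

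**Figure D3:**
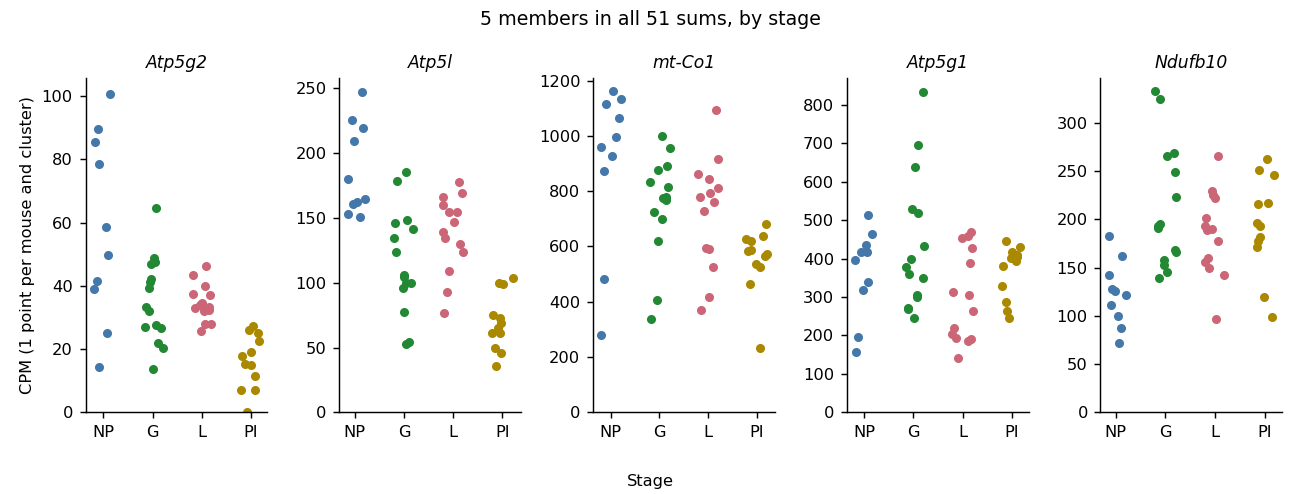
CPM of *Atp5g2*, *Atp5l*, *mt-Co1*, *Atp5g1* and *Ndufb10* in all 51 sums, by stage, with 1 point per mouse and cluster. The 12 PI sums of *Atp5l* (35.9 to 104 CPM) lie below all 10 NP sums (151 to 247 CPM), and the PI sums of *Atp5g2* reach at most 27.3 CPM.

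A test of the difference between both cell types in their change from NP to PI called 2 of 93 genes, where 13.7% of all genes were called. *mt-Co1* fell by 0.641 more on the log2 scale in hormone-sensing cells than in luminal progenitors (adjusted p = 0.0226), and for *Ndufc2* the change was 0.578 lower in hormone-sensing cells (adjusted p = 0.0357). For *Atp5g2* and *Atp5l* no difference between both cell types passed the test.

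Basal cells of G mice (C13) were compared with those of NP mice (C12). Of 82 nuclear genes, 19 were higher and 22 lower, near the shares of all genes (24.6% and 22.2%), with a median of 0.02. The summed level was slightly lower in G, by 0.09 on the log2 scale. Complex I split into 12 higher and 8 lower of 36, and complex IV into 3 and 4 of 14. The split depended on the scaling and on single mice. With library totals it was 10 higher and 29 lower, DESeq2 called 11 higher, and the number of higher genes came to 8 without the first NP mouse, 11 without the second and 11 without the first G mouse. Fibroblast markers were at 173 and 252 CPM in C12 and 866 and 669 CPM in C13, luminal markers at 5191 and 3451 and 1213 and 1315 CPM, and dissociation-stress genes at 2558 and 2403 and 5848 and 3548 CPM. Their part in the result was not tested.

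*Ndufa6*, an accessory subunit of complex I, rose from 91.2 and 104 CPM in C12 to 157 and 135 CPM in C13 (log2 fold change 0.67, SE 0.14, adjusted p = 0.000955), and *Cox6b2* was at 9.40 and 11.4 CPM in C12 and 30.3 and 25.8 CPM in C13 (1.55, SE 0.23). Among the falls, *Ndufa12* went from 147 and 146 CPM in C12 to 58.1 and 62.9 CPM in C13 (log2 fold change -1.19, SE 0.13, adjusted p = 2.62e-06), *Ndufb7* fell by 0.90 and the assembly factor gene *Ndufaf2* by 0.88 on the log2 scale. *Atp5g1* fell from 513 and 464 CPM in C12 to 268 and 270.2 CPM in C13 (-0.77, SE 0.12). The abundant *Cox4i1* rose by 0.53 and *mt-Nd2* was lower (-0.62).

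Myoepithelial cells of lactation (C14) against basal cells of gestation (C13) had 40 of 83 nuclear genes higher and 10 lower (24.1% and 24.1% of all genes), with a median of 0.36. The rise was carried by complex I, of which 22 of 36 genes were higher and 1 lower, and by 4 of 7 assembly genes. Complex V had 6 higher and 4 lower of 15. The summed level nevertheless overlapped between stages, and several abundant genes fell.

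*Ndufa12* rose from 58.1 and 62.9 CPM in C13 to 137 and 155 CPM in C14 (log2 fold change 1.38, SE 0.13, adjusted p = 0.000133) and *Ndufs5*, of which 43.5% of the 3′ stretches occur in other genes, from 46.5 and 42.1 CPM in C13 to 106 and 97.7 CPM in C14 (log2 fold change 1.31, SE 0.13, adjusted p = 0.000159). *Ndufaf3*, an assembly factor of complex I, rose by 1.23, SE 0.21. Of the abundant genes, *Cox4i1* fell from 1299 and 1377 CPM in C13 to 870.4 and 841 CPM in C14 (log2 fold change -0.53, SE 0.10, adjusted p = 0.00258) and *Uqcrh* from 895 and 868 CPM in C13 to 525 and 498 CPM in C14 (-0.68, SE 0.10). *Uqcrfs1*, the Rieske iron-sulphur protein of complex III, fell by 0.67 and *Ndufaf4* by 1.01 on the log2 scale. *Ndufa12* and *Ndufaf4* had both been lower in G than in NP, and the C14 values of *Ndufa12* spanned the 147 and 146 CPM of NP mice, while those of *Ndufaf4*, 36.9 and 32.1 CPM, stayed below the 147 and 129 CPM.

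Other gene groups differed between these stages too. Summed dissociation-stress genes stood at 5848 and 3548 CPM in C13 and 25564 and 20480 CPM in C14, and 67 of 82 cytosolic ribosomal protein genes were lower in C14. The median of nuclear genes with transcripts under 1000 bases was 0.45 in this comparison and that of longer ones -0.02. For all genes these medians were 0.26 and 0.02. Leaving milk and ribosomal protein genes out of the total turned the ratio of the summed nuclear level from 0.06 to -0.16 on the log2 scale. The part of these differences in the result was not tested.

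Alveolar progenitors of gestation (C10) had a higher nuclear level than luminal progenitors of NP mice (C6), by 0.43 on the log2 scale and without overlap. Of 81 nuclear genes, 37 were higher and 6 lower (24.3% and 23.2% of all genes), with a median of 0.36. For transcripts under 1000 bases the median was 0.30 (all genes, 0.32) and for longer ones 0.54 (all genes, -0.03). Complex V had 9 of 15 higher and none lower, and complex IV 7 of 13 higher and 1 lower. *Atp5c1*, the gamma subunit of the ATP synthase, rose from 187 and 212 CPM in C6 to 544 and 538 CPM in C10 (log2 fold change 1.43, SE 0.13, adjusted p = 4.53e-06). *Ndufc2* rose by 1.40, SE 0.14, without overlap. *Uqcrh* rose from 433 and 467 CPM in C6 to 830.1 and 833 CPM in C10 (0.87, SE 0.12).

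*Ndufa4* fell from 669 and 700 CPM in C6 to 506 and 519.7 CPM in C10 (log2 fold change -0.43, SE 0.12, adjusted p = 0.0105), and *Ndufaf4* from 81.5 and 92.5 CPM in C6 to 22.2 and 35.6 CPM in C10 (log2 fold change -1.57, SE 0.21, adjusted p = 7.68e-05). The mitochondrially encoded genes moved opposite to the nuclear ones: 4 of 7 were lower, all of complex I, and none was higher. *mt-Nd1* went from 2846 and 2772 CPM in C6 to 1620.4 and 1600.2 CPM in C10 (-0.82, SE 0.11) and *mt-Nd2* from 396 and 513 CPM in C6 to 222 and 215 CPM in C10 (-1.07, SE 0.15). *mt-Cytb*, of complex III, did not pass the test (0.09). Nuclear RNA was at 27775 and 30451 CPM in C6 and 12403 and 13566 CPM in C10, and luminal markers at 21672 and 18080 and 6254 and 7657 CPM. The part of these shifts in the result was not tested.

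Alveolar progenitors of lactation (C11) against those of gestation (C10) had 33 of 78 nuclear genes higher and 3 lower (16% and 12.9% of all genes), with a median of 0.40, although their summed level was the same to within 0.01 on the log2 scale. With milk protein genes left out of the total the summed level was higher in C11 (0.09 on the log2 scale), and with ribosomal protein genes left out as well it was lower (-0.22), both without overlap. Milk protein genes took 4077 and 2032 CPM in C10 and 72147 and 59197 CPM in C11. The count depended on the scaling: with library totals 19 were higher and 13 lower, with the median of all genes at -0.33, and DESeq2 called 21 higher and none lower. Without the second G mouse 20 were higher and none lower. Complex I had 20 of 36 genes higher and complex V 3 of 15. The nuclear median was 0.48 for transcripts under 1000 bases (all genes, 0.24) and 0.23 for longer ones (all genes, -0.05). *Atp5k*, the e subunit of the ATP synthase, rose from 156 and 134 CPM in C10 to 288 and 308 CPM in C11 (log2 fold change 1.34, SE 0.15, adjusted p = 0.000269), and *Ndufa4* from 506 and 519.7 CPM in C10 to 746 and 806 CPM in C11 (0.90, SE 0.15). *Uqcrfs1* (-0.53, SE 0.15) and *Cox4i1* (-0.47, SE 0.15) were lower.

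*mt-Nd6*, the 1 protein-coding gene on the light strand of the mitochondrial genome, rose from 15.3 and 13.1 CPM in C10 to 67.5 and 49.4 CPM in C11 (log2 fold change 2.36, SE 0.28, adjusted p = 0.000325). *mt-Cytb* and *mt-Nd1* did not pass the test. Summed dissociation-stress genes were at 10229 and 8649 CPM in C10 and 20464 and 14557 CPM in C11, and basal markers at 126 and 197 and 4647 and 3323 CPM. Nuclear RNA stood at 12403 and 13566 CPM in C10 and 49786 and 43692 CPM in C11. Their part in the result was not tested.

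In differentiated alveolar cells, lactation (C9) against gestation (C8) gave 24 of 82 nuclear genes higher and 5 lower (9.26% and 9.16% of all genes), with a median of 0.24 (all genes, -0.16). This is relative to the TMM scale. With library totals the median of all genes was -1.06, and 2 nuclear genes were higher and 47 lower, so the direction for the nuclear genes turns with the scaling. Without the second G mouse 10 were higher and none lower. *Ndufa1* stood at 181 and 152 CPM in C8 and 264 and 275 CPM in C9 and kept its direction in unscaled CPM (log2 fold change 1.59, SE 0.18, adjusted p = 9.83e-05). *mt-Nd6* was at 26.3 and 28.7 CPM in C8 and 54.2 and 44.5 CPM in C9 (1.73, SE 0.21). Basal markers stood at 111 and 107 CPM in C8 and 2012 and 879 CPM in C9, and nuclear RNA at 14885 and 13718 and 32065 and 27175 CPM. Luminal markers were at 5793 and 7050 CPM in C8 and 1904 and 3140 CPM in C9. The part of these shifts in the result was not tested.

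Of the genes lower both after TMM scaling and in unscaled CPM, *Atp5a1*, the alpha subunit of the ATP synthase, was at 683 and 697 CPM in C8 and 238 and 202 CPM in C9 (log2 fold change -0.76, SE 0.18, adjusted p = 0.0138). *Ndufv1*, the NADH-binding subunit of complex I, was at 129 and 138 CPM in C8 and 38.4 and 35.0 CPM in C9 (log2 fold change -0.97, SE 0.20, adjusted p = 0.00574). *Uqcrfs1* fell by 0.72 on the log2 scale. Across the 82 nuclear genes the fold change correlated with the log2 transcript length at r = -0.38, where the genes under 1000 bases had a median of 0.43 and the others -0.07. For all genes these medians were 0.17 and -0.19. Genes are not independent replicates, and no p is given. No gene differed past the threshold between differentiated and progenitor alveolar cells in its change from G to L (0 of 87 by edgeR, 8 at an unadjusted p under 0.05, lowest adjusted p 0.0623), where 3.58% of all genes did.

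**Figure D4:**
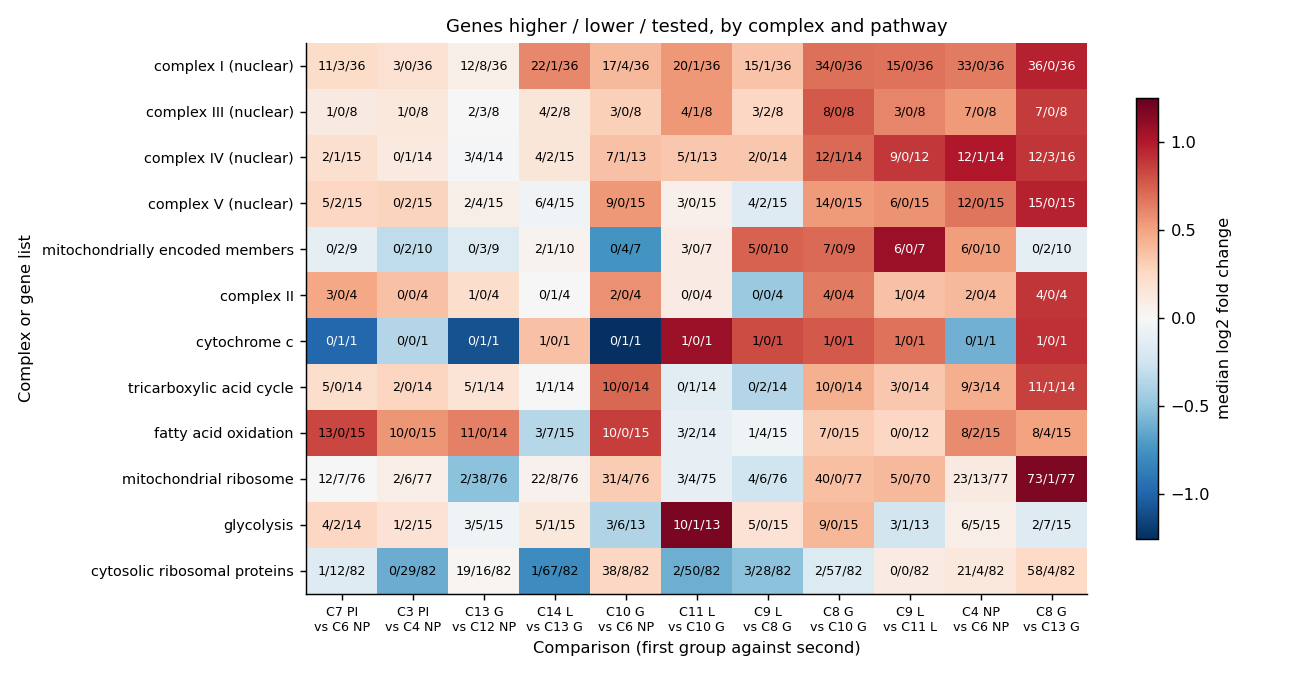
Number of genes higher, lower and tested in each of the 11 comparisons, by complex and pathway list, with the colour giving the median log2 fold change. Complex I stands at 36, 0 and 36 in C8 against C13, and the mitochondrial ribosome at 73, 1 and 77.

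*Ndufaf4*, whose product helps to assemble complex I, was lower in 5 of 11 comparisons and higher in none, which no other of the genes matched. Basal cells of NP mice held it at 147 and 129 CPM, of which the former was its highest sum. The PI sums reached up to 143 CPM. It stood at 81.5 and 92.5 CPM in luminal progenitors of NP mice and 30.5 and 30.3 CPM in differentiated alveolar cells of gestation. In the lactating alveolar cells of C9 it was at 15.7 and 12.1 CPM in unscaled values, which the large share of milk transcripts there lowers. *Ndufaf4* was not called in C9 against C8 or in C9 against C11. The genes called higher most often were *Ndufb10* and *Ndufv3*, each in 9 of 11 comparisons. Some of these comparisons share sums, so the counts are no independent support.

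The c subunit genes kept different shares of their common total. *Atp5g2* made up 13.1% and 13.9% of the UMIs of the 3 genes in C4 of NP mice and 3.82% and 3.42% in C3 of PI mice. In C6 of NP mice its share was 8.18% and 7.46%, and in C7 of PI mice 2.16% and 2.21%. *Atp5g1* held 44.4% in each G mouse of C13, where *Atp5g3* held 51.1% and 52.3%, and 60.7% to 62.4% in C6 of NP mice. These shares do not depend on the scaling between sums.

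Cluster C15 stood apart through the complex IV isoforms *Ndufa4l2* and *Cox4i2*. It came from the L mice (205 and 57 cells) and had been named by its expression of *Procr* as basal. The authors reported some pericyte markers in it and could not exclude that its cells are non-epithelial. Its markers here go against an epithelial label. *Krt5* was at 45.0 and 97.9 CPM and *Krt14* at 297 and 276 CPM, against 999 and 915 and 4878 and 5442 CPM in C14, and the luminal markers summed to 119.5 and 71.2 CPM. *Rgs5*, *Des*, *Pdgfrb* and *Cspg4*, markers of pericytes, stood at 4288 and 3559.7, 815 and 921, 231 and 209 and 107 and 129 CPM, where *Rgs5* was at 76.2 and 14.9 CPM in C14. The contractile gene *Acta2* was at 7376 and 8512 CPM.

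*Ndufa4l2*, a paralogue of *Ndufa4* that is known as a target of hypoxia-inducible factor, was at 1656 and 1646 CPM in C15 and made up 88.1% and 87.7% of the UMIs of both genes. In the 49 sums outside C15 its median was 0.322 CPM, its highest level 96.5 CPM in endothelial-like C19 of an L mouse, and 21 sums had no UMI, where a count of 0 allows up to 3. *Cox4i2*, the second isoform of the complex IV subunit of *Cox4i1*, was at 668 and 525 CPM and held 35.4% and 31.3% of its family. Outside C15 it reached 85.0 CPM at most, in C19 of a G mouse, and 6.54% of the family. *Cox6b2* was at 41.9 and 71.2 CPM in C15. The authors formed C15 from these same transcripts, so these levels are a description.

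**Figure D5:**
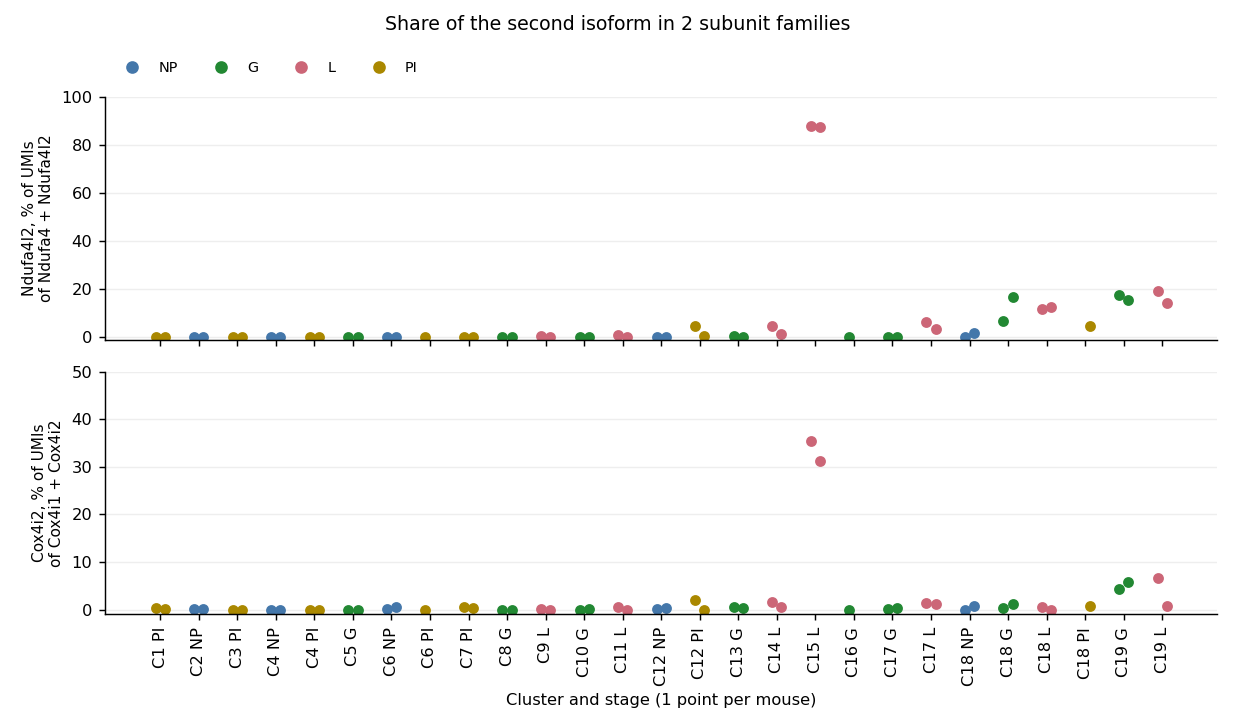
Share (percent of UMIs) of *Ndufa4l2* in the sum of *Ndufa4* and *Ndufa4l2* (upper panel) and of *Cox4i2* in the sum of *Cox4i1* and *Cox4i2* (lower panel), by cluster and stage, with 1 point per mouse. C15 stands at 88.1% and 87.7% and at 35.4% and 31.3%, and the highest shares elsewhere are 19.1% and 6.54%, both in C19.

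Genes of neighbouring pathways were counted over whole lists. The mitochondrial ribosome, which makes the mitochondrially encoded subunits, had 73 of 77 genes higher and 1 lower in C8 against C13 (37.4% and 35.2% of all genes), with *Mrpl40* at 5.81 and 5.72 CPM in C13 and 43.0 and 40.2 CPM in C8 (2.95, SE 0.20). In C8 against C10, 40 of 77 were higher and none lower (14.4% and 13.8% of all genes). In basal cells of G against NP mice 38 of 76 were lower and 2 higher (22.2% and 24.6% of all genes), with *Mrpl22* at 38.8 and 36.1 CPM in C12 and 10.6 and 12.6 CPM in C13 (-1.60, SE 0.20).

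The tricarboxylic acid cycle, which supplies NADH and succinate, had 10 of 14 genes higher and none lower in C10 against C6 (24.3% and 23.2% of all genes), with *Idh2* at 51.0 and 55.2 CPM in C6 and 163 and 147 CPM in C10 (1.53, SE 0.14), and 10 of 14 higher in C8 against C10 (14.4% of all genes). The 4 genes of complex II, which the symbol rule left out, were all higher in C8 against C10, with *Sdha* at 91.8 and 65.5 CPM in C10 and 124 and 119.9 CPM in C8 (0.77, SE 0.12). The gene for the electron carrier cytochrome c, *Cycs*, did not follow the chain. It was lower in C10 than in C6 (257 and 282 CPM in C6 and 110.2 and 91.1 CPM in C10, log2 fold change -1.44, SE 0.14, adjusted p = 8.74e-06), lower in C4 than in C6 (-0.60), lower in C7 than in C6 (-0.98) and lower in C13 than in C12 (-1.09), and it was higher in C8 than in C10 (0.77).

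Fatty acid oxidation, which feeds electrons into the chain, was higher in PI mice in both luminal lineages: 13 of 15 genes in C7 against C6 (14.2% of all genes) and 10 of 15 in C3 against C4 (8.54%), with none lower. *Acaa2* was at 21.7 and 20.3 CPM in C6 and 53.7 and 58.2 CPM in C7 (1.50, SE 0.16) and *Slc25a20*, the carnitine carrier, at 13.5 and 12.3 CPM in C4 and 34.2 and 27.4 CPM in C3 (1.17, SE 0.17). Both were without overlap. In C13 against C12, 11 of 14 were higher and none lower (24.6% and 22.2% of all genes). Glycolysis, which makes ATP outside mitochondria, had 10 of 13 genes higher and 1 lower in C11 against C10 (16% and 12.9% of all genes), with *Ldha* at 366 and 313 CPM in C10 and 1217 and 1454 CPM in C11 (2.28, SE 0.17), and 2 of 15 higher and 7 lower in C8 against C13 (37.4% and 35.2%).

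Of the regulators of mitochondrial genes, 5 of 13 were lower and 3 higher in C4 against C6, near the shares of all genes (29.7% and 31.5%). *Gabpb1*, *Nrf1*, *Myc*, Gabpa and *Pprc1* were lower, and *Esrra*, an oestrogen-related receptor, was at 6.04 and 4.98 CPM in C6 and 12.8 and 9.03 CPM in C4 (1.04, SE 0.29). *Esrra* was also the 1 regulator of 14 that was higher in C8 against C10 (14.4% of all genes), at 9.18 and 13.1 CPM in C10 and 19.9 and 16.9 CPM in C8 (0.81, SE 0.26). In C10 against C6, 2 of 10 were higher, *Esrra* among them, and 4 lower (24.3% and 23.2% of all genes). Of 22 genes for the assembly of complexes III and IV, 11 were higher and 2 lower in C4 against C6 (31.5% and 29.7%), led by *Surf1* (1.30, SE 0.16).

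Genes outside the set were ranked by the correlation of their log2 CPM with the log2 summed nuclear level over all 51 sums, among 5954 genes with a mean of at least 20 CPM. The 5 most alike were *Cox14* (r = 0.822), *Prdx2* (0.818), *Mycbp* (0.797), *Vdac1* (0.797) and *Prdx3* (0.792). The median r was 0.755 for the 75 nuclear oxidative phosphorylation genes at that level, each of which is part of the sum, and 0.045 for all genes. Sums of 1 library share its depth and preparation, and the summed level itself correlated at 0.287 with the median UMI count per cell and at 0.138 with the summed ribosomal protein genes. These values are descriptions over sums that are not independent.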

How the data were processed

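The deposited files hold UMI counts for each gene in each cell of a library, made by the authors with Cell Ranger on mm10 (STAR is named in the submitters' processing notes, its version is not given in the sources used here), without normalisation. A deposited annotation gives the library, cluster, quality flags, UMI and gene counts and mitochondrial fraction of each cell, and 1 annotated cell had no barcode in the count tables. Its fraction of mitochondrial UMIs was not tested. The combined matrix and its companions were not used.

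Cells of clusters C1 to C19 that passed the authors' flags (the doublet cluster C20 was left out) were summed per mouse and cluster where at least 20 cells remained. Sums were tested with edgeR 4.0.16 in R 4.3.3 (TMM, filterByExpr with a minimum count of 10 and a minimum total of 15, quasi-likelihood F-test, Benjamini-Hochberg adjustment over all genes tested, threshold 0.05), in 7 comparisons between stages and 4 within mice, the latter with the mouse as a block. Residual degrees of freedom were 2 and 1. Prior degrees of freedom were infinite in C8 against C10, C4 against C6 and C8 against C13, so those p-values rest on 1 variance trend for all genes. Alternatives were DESeq2 1.42.0, library totals, no filter, equal depth, milk genes left out, the other blocking and each mouse left out. Sequence copies were counted as 50-base stretches of the last 500 bases of the longest protein-coding transcript of each gene. Python 3.11.15 with pandas 2.3.3, numpy 2.4.6, scipy 1.17.1 and matplotlib 3.10.9 was used.

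The pairing of cluster sums within a mouse comes from the labels. The correlation of their deviations was 0.41 in C8 and C10, 0.36 in C8 and C13, 0.27 in C4 and C6 and 0.11 in C9 and C11. Without this block the 1 lower nuclear gene of C8 against C10 was no longer called (0), and in C4 against C6 and in the mitochondrially encoded genes of C8 against C13 1 gene each was lower, where the block gave 2. The members and lists were chosen with earlier results of these data known. Named are all mitochondrially encoded genes with a result, isoform families and the 6 most abundant nuclear genes. Up to 3 genes per list and the 5 genes most alike are named as well. So are the 3 largest rises and falls per comparison, if called and at least 20 CPM in 1 group. Between stages these also had no overlap between mice, and within mice the same direction in both mice. Genes named beyond this rule (*Ndufa12*, *Ndufs5*, *Ndufb4*, *Atp5b* and *Ndufaf4* in further comparisons, *Ndufv1* in C3 against C4, Gabpa) were chosen after their values were seen, and 1 gene that the rule names is not reported here. In simulated counts with 200 changed genes and a dispersion of 0.05, the test recovered 9% (C9 against C8) to 24% (C7 against C6) of genes changed 2-fold and 60% to 88% of genes changed 4-fold. The common dispersions fitted to the data were smaller, from 0.0031 (C8 against C10) to 0.0291 (C9 against C11). Each sum was drawn independently, so no difference shared by the sums of 1 mouse was simulated. These shares therefore do not give the recovery in the real comparisons. Each mouse is 1 replicate, and the totals per library given with the results limit the precision of low counts.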

Additional observations from a re-analysis of the deposited data

Results flagged for a closer look

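For 2 of 93 genes the change from NP to PI mice differed between differentiated hormone-sensing cells (C4 to C3) and luminal progenitors (C6 to C7), by a test of the difference itself. Of all 12132 genes tested, 13.7% were called. The log2 fold change of *mt-Co1* was -1.22 in hormone-sensing cells and -0.58 in luminal progenitors, a difference of -0.641 (edgeR, adjusted p = 0.0226). It was lower in both PI mice than in both NP mice in either cell type. That of *Ndufc2* was 0.30 in hormone-sensing cells and 0.88 in luminal progenitors, a difference of -0.578 (adjusted p = 0.0357), with values of 188 and 162 CPM in C4 and 225 and 224 CPM in C3. Of the 3′ stretches of *mt-Co1*, 95.3% occur in other genes, and the part of such copies in its difference was not tested.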

How the results depend on the processing

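For the genes with the largest rises and falls, 521 values were recomputed under the alternatives, of which 489 kept direction and side of the threshold, 32 kept direction but lost the call and 0 reversed. For all 530 calls of the oxidative phosphorylation genes, 4185 values were recomputed, of which 547 kept direction but lost the call and 32 reversed, 16 in C9 against C8 and 16 in C9 against C11, each with library totals. For the number of nuclear genes higher, the replicate number as a block between stages moved none of 7 counts by over 1.5 times, and of the calls of nuclear genes given by name those of *Ndufb10* and *Ndufv1* in C3 against C4 were lost. It gave 20 higher and 6 lower in C7 against C6, 3 and 4 in C3 against C4, 20 and 23 in C13 against C12, 42 and 10 in C14 against C13, 37 and 7 in C10 against C6, 35 and 4 in C11 against C10 and 25 and 4 in C9 against C8. Same-numbered mice of different stages share only a number: the correlation of their deviations lay between -0.09 and 0.12. Within mice, the fit without the block gave 63 higher and 0 lower in C8 against C10, 25 and 0 in C9 against C11, 66 and 1 in C4 against C6 and 75 and 4 in C8 against C13, with 1 mitochondrially encoded gene lower there.

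Library totals in place of TMM gave 10 nuclear genes higher in C13 against C12, 19 higher and 13 lower in C11 against C10, 2 higher and 47 lower in C9 against C8 (median -0.65) and 1 higher and 9 lower in C9 against C11 (median -0.24). Mitochondrially encoded genes came to 1 higher and 3 lower in C14 against C13, 1 lower in C11 against C10, 2 higher and 2 lower in C9 against C8 and 1 higher in C9 against C11. The shift of all genes under this setting shows that it moves the centre. DESeq2 gave 11 nuclear genes higher in C13 against C12, 21 higher and 0 lower in C11 against C10, 6 higher in C9 against C11 and 1 lower in C4 against C6. Of mitochondrially encoded genes it gave 1 lower in C3 against C4, 0 lower in C13 against C12, 1 higher in C14 against C13 and 8 higher in C9 against C8. Without a filter 8 nuclear genes were higher in C3 against C4, 16 in C9 against C11 and 5 lower in C11 against C10, with 1 mitochondrially encoded gene higher in C13 against C12, 2 lower in C14 against C13 and 1 lower in C8 against C13. At equal depth 2 were higher in C3 against C4, 5 lower in C11 against C10 and 1 lower in C9 against C8, with 1 mitochondrially encoded gene lower in C3 against C4 and 1 higher and 2 lower in C14 against C13. Except for the scaling, the cause was not tested.

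The log2 ratio of the summed nuclear level turned to 0.10 in C9 against C8 (-0.13 with ribosomal protein genes left out as well) and to 0.61 in C9 against C11 without milk protein genes, and to 0.59 in the latter and -0.16 in C14 against C13 without milk and ribosomal protein genes. Leaving out 1 mouse gave 9 to 19 nuclear genes higher and 2 to 8 lower in C7 against C6, 0 to 12 and 2 to 5 in C3 against C4, 8 to 21 higher in C13 against C12, 20 to 37 and 0 to 4 in C11 against C10 and 10 to 24 and 0 to 4 in C9 against C8. Mitochondrially encoded genes lower came to 1 to 2 in C7 against C6, 1 to 4 in C3 against C4, 0 to 3 in C13 against C12, 1 to 2 in C14 against C13 and 0 to 2 in C11 against C10, and those higher to 0 to 2 in C13 against C12, 0 to 4 in C14 against C13 and 2 to 4 in C9 against C8. The lone mouse is then assumed to vary like the others. Within mice no residual degree of freedom remains without a mouse, so no test was run. Depth limits C9, whose sums held 42 and 47 cells.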
